A study of Mus musculus with 7 samples.

Results

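In the m6A MeRIP-Seq of injured mouse muscle, 1610 peaks were annotated to the 3′UTR and held at least 1 GGAC site, the sequence at the core of the consensus motif of METTL3 methylation. They were taken as the rows of the authors' muscle peak table with the 3′UTR annotation and a listed site count of 1 or more. They made up 62.0% of the 2598 3′UTR peaks (60.1 to 63.8%, a 95% Wilson interval, which like those below covers only counting error) and 29.7% of all 5412 muscle peaks, and they fell in 1440 genes. The other 988 3′UTR peaks, in 867 genes, held no GGAC site, and 193 genes had peaks of both kinds.

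Libraries came from the muscle of C57BL/6 mice that received tamoxifen for 5 days and then CTX (cardiotoxin), and were made at day 2 after the injury from METTL3 cKO mice (Pax7CreERT2; METTL3 flox/flox) and from control mice (CTL, Pax7CreERT2; METTL3 wt/wt), with 1 immunoprecipitated (IP) library and 1 input library per genotype. The Cre acts in Pax7-expressing cells, so the other cells of the tissue keep METTL3 in the cKO muscle, and the labels give the cell type as muscle stem cell but the source as muscle. A second table lists peaks of C2C12, a mouse myoblast line, from 2 IP libraries labelled Knockout and 1 input library labelled Normal. The muscle table gives 1 fold enrichment (IP over input) per peak and not 1 per genotype, neither table gives counts, and the depth is unknown. No comparison between cKO and CTL and no test could therefore be made from these values, and the results below describe 1 set of peaks.

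MeRIP-Seq pulls down pieces of mRNA with an antibody that binds m6A, and a peak is a stretch of transcript that is enriched in this IP relative to the input. METTL3 is the catalytic subunit of the complex that methylates adenosines of mRNA, mostly in GGAC and closely related sequences near the stop codon and in the 3′UTR. Reader proteins of the YTH family bind the methylated sites there and act on the decay and translation of the mRNA. A peak is longer than a site, so a GGAC site inside it is a place where the methylated adenosine may lie and not a measured methylation.

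Site sequences were read for the members whose sites lie inside a promoter sequence of a neighbouring gene in the RefSeq set (GRCm38.p6), which were the sequences that could be read here. They are shown on the strand of the gene that carries the peak, with GGAC in capitals, to show what the listed sites look like in the transcript.
Mrpl43, chr19:45005671-45005691, minus strand: ggcgctttGGACcgtgagagg
Mrpl43, chr19:45005454-45005474, minus strand: ttgtacaaGGACcgtgttttc
Casz1, chr4:148952338-148952358, plus strand: tcccaagaGGACgacgaggag
Casz1, chr4:148952505-148952525, plus strand: gggcgcgcGGACcccgctggc
Hoxa7, chr6:52215472-52215492, minus strand: caccttggGGACcctctctgc
Nup160, chr2:90735649-90735667, plus strand: caaagtcaGGACcgaccct
Moap1, chr12:102743513-102743533, minus strand: cctctccgGGACccaagcgat

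These sites belong to peaks of quite different strength. The peak of Casz1, a zinc finger transcription factor, held 11 sites in 1469 bp at a fold enrichment of 274, and that of Hoxa7, a homeobox transcription factor, held 4 sites in 600 bp at 92.5. Moap1, a modulator of apoptosis, had a peak with 2 sites at 82.5. Mrpl43, a subunit of the mitochondrial ribosome, had 5 sites at 34.8, and Nup160, a scaffold protein of the nuclear pore, had a single site in 180 bp at 5.22. The base that followed GGAC was C in the sites of Mrpl43, Hoxa7, Nup160 and Moap1 and in 1 of the 2 of Casz1, whose other site was followed by G. Neighbourhood to another gene's start chose these sites, so their flanks do not stand for the other members.

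The members ranged from peaks with 1 site to peaks with 59. In all they held 4680 sites, at a density of 5.23 per 1000 bp of exonic length. A single site was listed in 587 members (36.5%), 2 sites in 348 (21.6%) and 3 sites in 232 (14.4%), while 37 members (2.30%) held 10 or more. The exonic length ran from 118 to 5427 bp with a median of 446.5 bp, against 211 bp for the 3′UTR peaks without GGAC and 690 bp for the 1458 coding-sequence (CDS) peaks with it. Since a longer stretch holds more copies of any 4-base sequence, length and site number cannot be separated by the choice of these peaks.

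The peaks richest in sites were those of Ankrd11, a chromatin cofactor, with 59 sites in 5427 bp, Ahdc1, an AT-hook DNA-binding protein, with 33 in 5300 bp, Phrf1, a PHD and RING finger protein, with 20 in 2396 bp, the receptor Notch2 with 19 in 4074 bp, and Xirp1, an actin-binding protein of striated muscle, with 18 in 2516 bp. Their fold enrichments were 140, 521, 96.9, 329 and 118, so none of these 5 was among the 10 strongest members. All of them but Notch2 spanned more than 1 exon block. The peak of Ankrd11 ended 7416 bp before the 3′ end of the gene. The 3′UTR class is the annotation of the authors, and whether long peaks of several blocks also cover coding sequence was not tested. More than 1 block was listed for 111 members, which had a median fold enrichment of 73.2 and included 16 of the 37 members with 10 or more sites.

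Among members with at least 3 sites, the highest densities of sites, which the choice by site number ties to short peaks, were those of Cmtm3, a membrane protein of the chemokine-like factor family, with 4 sites in 150 bp, Uap1l1, a relative of an enzyme of nucleotide sugar synthesis, with 3 in 121 bp, and Apba1, an adaptor of the amyloid precursor protein, with 6 in 270 bp. Their fold enrichments were 3.81, 3.22 and 25.9. Over the 919 members of a single block with 2 or more sites, neighbouring sites had a median distance of 82 bases (quartiles 35 and 170.75), and 342 of 2466 neighbouring pairs (13.9%) were within 20 bases of each other.

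The median fold enrichment of the members was 16.3 (95% interval of the median 14.6 to 18, counting error only, quartiles 6.32 and 49.95, range 1.41 to 2530). The 3′UTR peaks without GGAC had a median of 5.81 (5.52 to 6.19), and the CDS peaks with GGAC one of 37.9 (32.3 to 42.4). The members were thus stronger than the other 3′UTR peaks and weaker than CDS peaks holding the motif, with wide overlap of the single values: the strongest 3′UTR peak without a site, that of Gtpbp10, a GTP-binding protein, had a fold enrichment of 362.

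Within the members the fold enrichment was higher where more sites were listed. The median was 7.90 with 1 site, next to 5.81 for the peaks without a site that lie just outside the rule, then 11.5 with 2 sites, 20.9 with 3, 34.9 with 4, 75 with 5 to 9 and 153 with 10 or more. The median length rose along the same order, from 298 bp with 1 site to 1648 bp with 10 or more. Read the other way, 41.7% of the 3′UTR peaks with a fold enrichment below 4 held a site (37.6 to 45.8%) and 97.1% of those at 128 or above (93.8 to 98.7%). Over all 3′UTR peaks, with and without a site, the number of sites per 1000 bp was 3.10 below a fold enrichment of 4 and 5.26 at 128 or above. Within the members alone it did not rise in this way. It was highest, at 6.36, below a fold enrichment of 4, where the members had a median length of 211 bp. From 16 to under 32 it was 4.67, and at 128 or above it was 5.35.

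**Figure D1:**
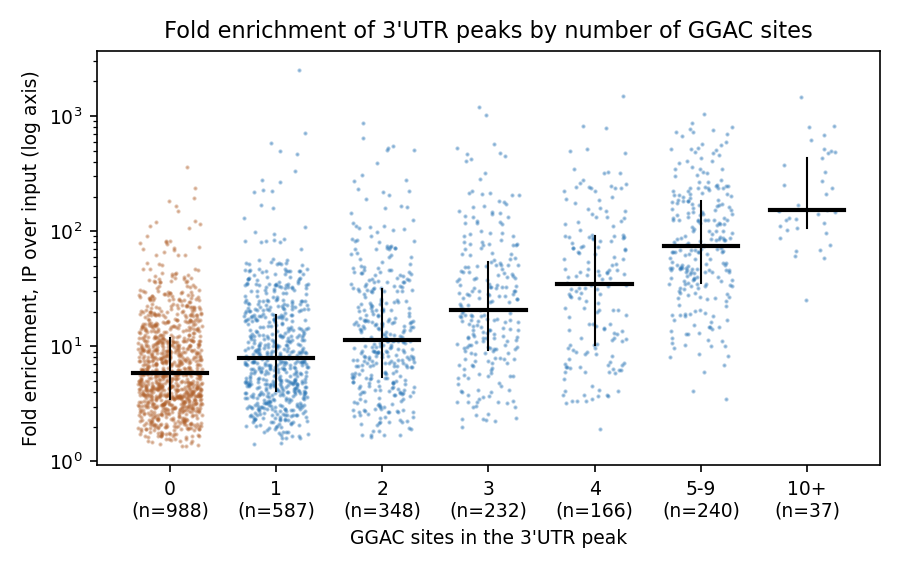
Fold enrichment (IP over input, log axis) of each muscle 3′UTR peak by its number of GGAC sites, with the median (horizontal line) and quartiles (vertical line) of each class. The median goes from 5.81 in the 988 peaks without a site to 153 in the 37 peaks with 10 or more, and the classes overlap.

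At like length the difference between 3′UTR peaks with and without GGAC was small or absent in short peaks. Below 200 bp the median fold enrichment was 3.67 with a site (169 peaks) and 3.84 without (421 peaks), and from 200 to under 300 bp it was 6.56 with (308) and 7.57 without (339). From 300 to under 500 bp the members had 12.3 (432) and the other peaks 11 (184). A clear gap appeared only from 500 to under 1000 bp, with a median of 39.6 in 516 members and 20.2 in 42 peaks without a site. Lengths inside this wide class were not matched, and the members' median itself rose with length, to 115 at 1000 bp or more. The part of length in this gap was not tested. At 1000 bp or more there were 185 members and only 2 peaks without GGAC, so no comparison could be made there.

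**Figure D2:**
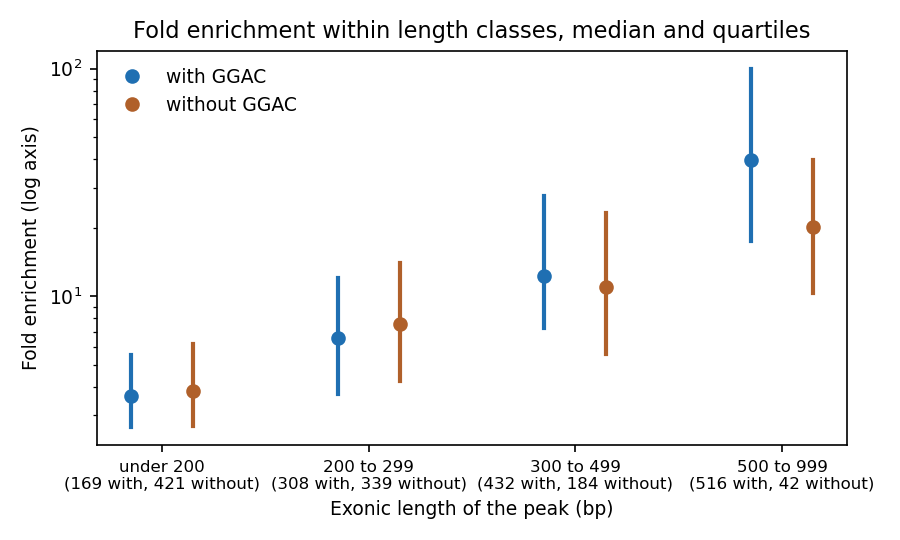
Median (point) and quartiles (bar) of the fold enrichment (log axis) of 3′UTR peaks with and without GGAC in classes of exonic length, with the number of peaks under each class. The pairs are close below 500 bp and apart from 500 to under 1000 bp, at 39.6 with and 20.2 without.

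The strongest member was the peak of Slamf7, a receptor of immune cells, at chr1:171632433-171634198, with a fold enrichment of 2530 over 1766 bp but a single listed site. It was followed by Cwc25, a spliceosome factor (1490, 4 sites), Tmem229b, a transmembrane protein (1450, 11 sites), Cavin2, a component of caveolae (1190, 3 sites), and Slc8a3, a sodium-calcium exchanger of muscle and brain (1040, 5 sites). Stard5, a sterol-binding lipid transfer protein, had 3 sites at 1030. Cdh11, a cadherin of mesenchymal cells, had 6 at 865. The transcription factor Foxp1 had 2 at 865, and its peak of 207 bp was the shortest of these 10. Cxcl12, the chemokine that binds Cxcr4, had 11 sites at 815, and Tnfsf10, a death receptor ligand also known as TRAIL, had 4 at 815. The 10 strongest members thus held between 1 and 11 sites, and the strongest of these 10 had the fewest. A pair of other 1-site members stood far above the median of their class, namely Sspn, a component of the dystrophin-associated complex of the muscle membrane, at 716 and Nr2f2, an orphan nuclear receptor, at 587. These were picked out after their values were seen.

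At the other end were Actb, which encodes beta-actin, with a fold enrichment of 1.41, Rraga, a Rag GTPase that signals amino acids to mTORC1, with 1.45, and the transcription factor Maf with 1.59. Each had 1 site in a peak of under 200 bp. The deposited p-value of the peak was at most 0.0037 over all members and was listed as 0 for 264 of them.

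Some 3′UTRs carried several separate peaks with the motif. More than 1 member was found in 140 genes and 3 or more in 23. Zbtb20, a zinc finger repressor, had 7 on chromosome 16, with fold enrichments from 3.84 to 239 and a single peak, of 1320 bp, above 100. Pou2f2, a POU transcription factor of lymphocytes, had 4, at 23.1, 225, 86.1 and 260 in order of position. In contrast, the 4 peaks of Bmpr2, the type II receptor for bone morphogenetic proteins, were alike, at 4.10, 8.85, 9.36 and 8.80, and the 4 of Nfic, a nuclear factor I transcription factor, lay between 3.51 and 14.2. Ago2, the Argonaute protein that carries microRNAs, had 3, at 3.28, 12.9 and 23.9.

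Along the peak, sites were somewhat more frequent in the middle than at the ends. In the 1499 members of a single block, the middle 50% of the length held 55.8% of 3965 sites (54.2 to 57.3%). Of 10 equal bins along the peak, bin 6 from the 5′ end held the most, 475 sites (12%), and the bin at the 3′ end the fewest, 258 (6.51%), while the bin at the 5′ end held 339 (8.55%). The 580 single-block peaks with exactly 1 site gave 56.7% in the middle (52.7 to 60.7%), and 55.0% of their sites lay on the 5′ side of the centre (50.9 to 59.0%). The shift toward the centre was thus small, and sites were found along the whole peak.

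**Figure D3:**
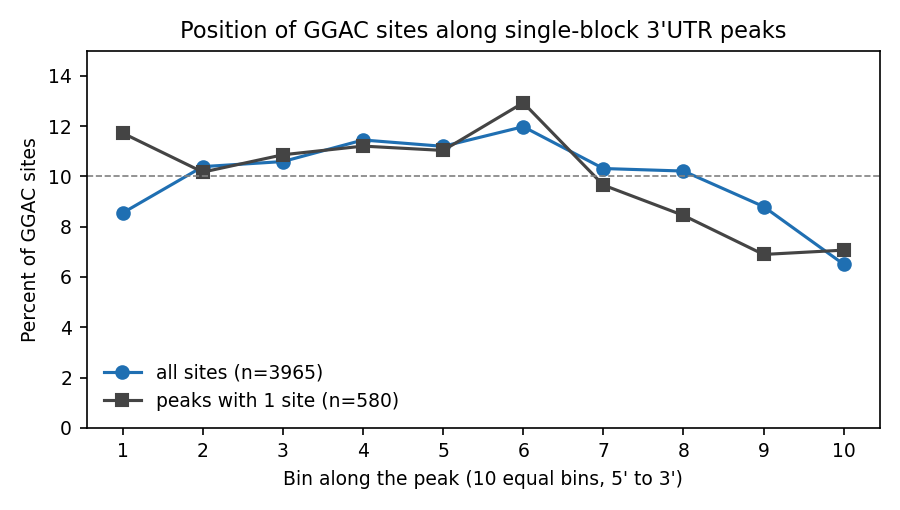
Percent of GGAC sites along the peak, in 10 equal bins from its 5′ to its 3′ end, for all 3965 sites of single-block members and for the 580 peaks with 1 site. The dashed line marks an even spread. The curve of all sites is highest in bin 6, at 12%, and lowest in the last bin, at 6.51%.

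The annotation used gives the ends of genes but no stop codons, so positions were taken as the distance from the 3′ side of the peak to the 3′ end of the gene. The median was 928 bp for 1515 members (858 to 1012) and 1257 bp for 954 3′UTR peaks without GGAC (1135 to 1377), and 52.5% of members (49.96 to 54.98%) against 43.2% of the others (40.1 to 46.4%) lay within 1000 bp of the end. Members were closer to the gene end in each length class below 1000 bp, with medians of 966 against 1281 bp below 200 bp, 810 against 1228 from 200 to under 300 bp, 1050 against 1284 from 300 to under 500 bp and 809 against 1363 from 500 to under 1000 bp. The genes of both kinds had peaks elsewhere about equally often. A CDS peak was listed for 15.3% of member genes (221 of 1440) and for 15.2% of the genes of peaks without GGAC (132 of 867), and a 5′UTR peak for 5.07% (73) and 4.61% (40).

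Genes with a member were also more often among the 1298 genes with a 3′UTR peak in C2C12. Such a peak was listed for 338 of the 1440 member genes, which is 23.5% (21.4 to 25.7%) of these and 26.0% of the C2C12 genes. It was listed for 99 of the 867 genes of 3′UTR peaks without GGAC (11.4%, 9.47 to 13.7%) and for 137 of the 1245 genes of CDS peaks with GGAC (11%, 9.38 to 12.9%). The share rose with the number of sites, from 14.4% of genes with a 1-site peak (11.7 to 17.6%) to 45.5% with 5 to 9 sites (39.3 to 51.9%). Peak length moved with it. Among peaks of 200 to under 500 bp the shares were 13.8% with and 12.4% without GGAC, and from 500 to under 1000 bp they were 33.9% (170 of 501 genes) and 7.14% (3 of 42). Lengths inside these classes were not matched. The expression of these genes in muscle and in C2C12 is not in the tables, and its part in the overlap was not tested.

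The build of the C2C12 positions is not given in the sources used here. Only 9.30% of 5430 C2C12 peaks lay inside the GRCm38 span of their gene, against 96.0% of the 2571 muscle 3′UTR peaks matched to a gene, so the positions were not compared directly and the peaks of a gene were compared by their distance from the start of the gene, centre to centre. For 364 members in 324 genes the nearest C2C12 3′UTR peak was at a median of 308 bp (220.5 to 419), and for 161 of them (44.2%, 39.2 to 49.4%) it was within 200 bp. For 111 3′UTR peaks without GGAC in 96 genes the median was 1452 bp (1119 to 1670), and only 8 (7.21%, 3.70 to 13.6%) were within 200 bp. The number of C2C12 3′UTR peaks per gene was alike, 1.15 in both sets. The difference was also seen among peaks of a fold enrichment from 8 to 32, with 37 of 87 members (42.5%) and 2 of 32 other peaks (6.25%) within 200 bp. By length it was not seen throughout. From 200 to under 300 bp 7 of 26 members and 1 of 40 other peaks were within 200 bp, with medians of 1656 and 1708 bp. From 300 to under 500 bp the medians were 789 and 777 bp, with 23 of 70 members and 7 of 24 other peaks within 200 bp, and below 200 bp no peak of either kind was that close. From 500 to under 1000 bp, where the members' median was 137 bp, only 3 peaks without GGAC could be set beside 167 members.

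**Figure D4:**
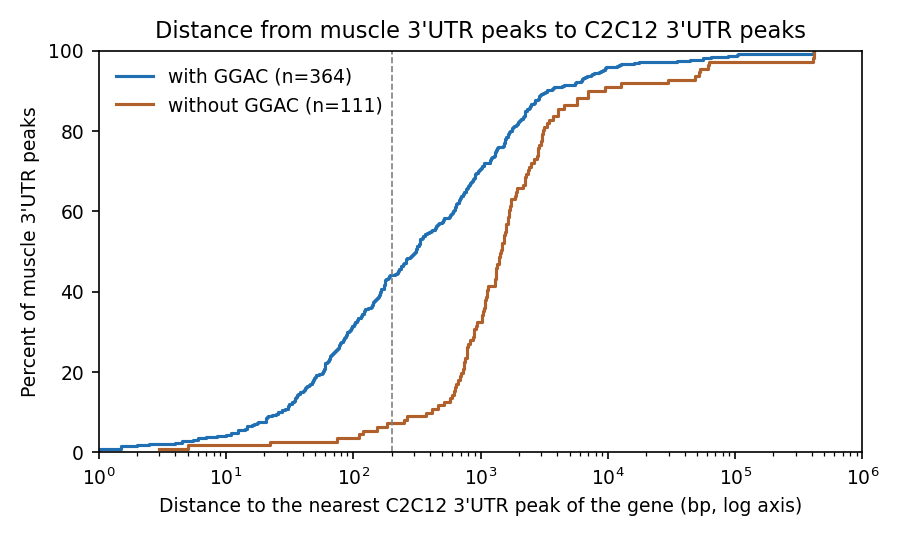
Cumulative percent of muscle 3′UTR peaks by the distance (bp, log axis) to the nearest C2C12 3′UTR peak of the same gene, both measured from the gene start, for 364 peaks with GGAC and 111 without. At the dashed line of 200 bp the curves stand at 44.2% and 7.21%.

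Among the Notch components, which the study followed in muscle stem cells, 4 of the 15 genes of a list of 34 that are in the muscle table had a member. Notch2, a receptor, had the peak with 19 sites described above, at chr3:98146168-98150241 with a fold enrichment of 329. The C2C12 list had a 3′UTR peak whose centre was 286 bp from the centre of this peak of 4074 bp. Distances to C2C12 peaks given here and below are also between centres, so a C2C12 peak at a short distance may overlap the muscle peak. Rbpj, the transcription factor that the cleaved receptor binds, had 3 sites in 571 bp at 90.9, at chr5:53653522-53654092, and a C2C12 peak 166.5 bp away. Maml1, the coactivator of that complex, had 2 sites in 837 bp at 44.4, at chr11:50256411-50257247, and Itch, a ubiquitin ligase that targets Notch, had 4 sites in 271 bp at 3.23. Neither had a 3′UTR peak in the C2C12 list. C2C12 peaks of other annotation are not given here for these genes, and the paper reports strong m6A on MAML1 mRNA in myoblasts.

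The ligands were not in this set. Jag1 was listed with a 5′UTR peak of 1 site at 6.90, and Jag2 and Dll1 with CDS peaks of 8 and 5 sites at 96.0 and 275. The receptors Notch1 and Notch4 had CDS peaks only, the stronger ones at 23.4 and 138. Adam10, the protease that cuts the receptor at the surface, Mib1, the ligase that activates the ligands, and Nrarp, a feedback inhibitor, had 3′UTR peaks without GGAC, at 43.7, 2.91 and 12.6. The share of the listed Notch genes with a member, 26.7%, stands beside 36.2% over all 3975 genes of the table.

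For transcription factors of muscle stem cells and muscle formation the share was higher, 12 of 15 listed genes (80.0%), beside 36.2% over all genes of the table. A 3′UTR peak of some kind was listed for 14 of the 15, beside 2114 of all 3975. Of the genes with such a peak, 12 of 14 had a member, beside 1440 of 2114. Pax7, the defining factor of muscle stem cells, had 3 sites in 479 bp at a fold enrichment of 39.0, and a C2C12 3′UTR peak 510.5 bp away. Klf5, a zinc finger factor of muscle regeneration, had 2 sites at 32.7, and Foxk1, a forkhead factor of myogenic progenitors, 1 site at 23.4. Tcf4, a partner of the myogenic bHLH factors, had 2 peaks, at 18.9 and 12.7. Myod1, the myogenic determination factor, had 1 site in 296 bp at 13.5. The inhibitors of those factors, Id1 and Id3, had 6 sites at 12.9 and 2 sites at 9.42, and both had a 3′UTR peak in C2C12, at distances of 116 and 25.5 bp. The peaks of Mef2d (4.08) and Mef2c (3.82), partners of the myogenic factors in differentiation, were weak. The median over the 13 peaks was 12.7, below the 16.3 of all members.

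In signalling by TGF-beta and bone morphogenetic proteins, a family that includes the muscle growth inhibitor myostatin, 8 of 13 listed genes had members. The share was 61.5% beside 36.2% over all genes of the table, and the 15 peaks had a median of 21.2. A 3′UTR peak of some kind was listed for 10 of the 13 genes, beside 2114 of all 3975. Inhba, the activin subunit, had 1 site in 451 bp at 334. Ski, an inhibitor of Smad proteins, had 7 sites at 147, Smad3, the transducer, 4 sites at 102 in the strongest of its 3 peaks, and the receptor Bmpr1a 1 site at 85.7. The receptor Tgfbr2 had 3 peaks from 2.40 to 24.2, the strongest of them 59.5 bp from a C2C12 peak. Of these 8 genes, 6 had a 3′UTR peak in C2C12, beside 338 of all 1440 member genes (23.5%). That share was higher for peaks with more sites and greater length, and the genes of this list were not matched for either.

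Members were also found in 13 of 20 listed genes of insulin, mTOR and FoxO signalling, the pathway of muscle mass. The share was 65.0% beside 36.2% over all genes of the table. A 3′UTR peak of some kind was listed for 18 of the 20, beside 2114 of all 3975. Insr, the insulin receptor, had 5 sites at 490, and Pik3r1, a regulatory subunit of PI3 kinase, 6 sites at 410, and their C2C12 peaks lay 56.5 and 80.5 bp away. Rictor, a core component of mTORC2, had 5 sites at 175, and Eif4ebp2, a repressor of cap-dependent translation, had 4 at 65.7. Mtor itself had 8 sites at 33.7, and Fbxo32, the ubiquitin ligase of muscle atrophy also called atrogin-1, had 3 at 11.9. The peak of the kinase Akt1 (4.58) was among the weak ones, and the median over the 14 peaks was 12.7.

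Cytokine and JAK-STAT genes, which carry the inflammation of early injury, had members in 8 of 19 listed genes (42.1%), near the 36.2% over all genes of the table, with a median of 32.3. Beside Cxcl12 they included the receptor Tnfrsf1a (5 sites, 90.7), Il6st, the shared receptor chain for IL-6-type cytokines (6 sites, 47.6), Stat6 (6 sites, 34.2), Jak2 (3 sites, 32.5), Ifngr2 (3 sites, 32.1) and Lifr (1 site, 4.50). The C2C12 peak of Ifngr2 lay 153 bp from its muscle peak. Cxcl12, Jak2 and Stat6 had no 3′UTR peak in C2C12.

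Chromatin modifiers had members in 13 of 31 listed genes (41.9%, also near that share, and 8 genes when the strongest peak of the gene had to be the member) with a median of 19.95, led by Asxl2, a Polycomb-associated protein (12 sites, 488), the H3K4 methyltransferase Kmt2d (12 sites, 151), the demethylase Kdm2b (4 sites, 82.6) and Kmt2a (3 sites, 43.8). Ubiquitin ligases and deubiquitinases had members in 15 of 28 (53.6%, beside 36.2% over all genes) with a lower median of 7.80. A 3′UTR peak of some kind was listed for 20 of these 28, beside 2114 of all 3975. The strongest of these were Usp24 (50.4), Cul5 (33.4), Rnf111 (23.4) and Rnf213 (18.3). Of the 8 listed m6A writers, readers and erasers 1 (12.5%) had a member. This was Wtap, the adaptor of the methyltransferase complex, with 3 sites in 480 bp at 57.2. Mettl3 had no 3′UTR peak in the table.

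Immediate-early genes had members in 3 of 11 listed genes (27.3%), beside 36.2% over all genes of the table. In the lists below, the share was 40.9% for extracellular matrix, 33.3% for sarcomere and 31.25% for Wnt and Hippo genes. For cell cycle genes it was 41.2% and for clock genes 14.3%. The immediate-early members differed widely. Ier2 held 11 sites in 1462 bp at 498, 33 bp from a C2C12 peak, while the 3 peaks of the AP-1 factor Fosl2 reached 5.01 and the peak of Klf6 had 2.88. In the extracellular matrix list (9 of 22 genes, median 9.15) no member passed 18.8, the value of the proteoglycan Vcan, with Fbn1, the main protein of microfibrils, at 15.7, the collagen Col5a1 at 9.80 and Thbs1, a matricellular protein, at 9.59. In the sarcomere and excitation-contraction list (5 of 15, median 20.5) the junctophilins Jph1 and Jph2, which join the T-tubule to the sarcoplasmic reticulum, had 51.7 and 20.5, Ldb3, a Z-disc protein, had 32.9 and Dysf, which acts in membrane repair, had 4.87. The Wnt and Hippo list (5 of 16, median 15.9, and 2 genes when the strongest peak of the gene had to be the member) was led by Amotl2, an angiomotin that binds YAP, with 7 sites at 48.1 and a C2C12 peak 5.50 bp away, then Gsk3b at 19.3, the co-receptor Lrp6 at 15.9 and Tcf7l2 at 4.75. The cell cycle list (7 of 17, median 6.11) had cyclin Ccnd2 at 63.3, and the kinase Atm (9.0), Trp53inp2 (8.82) and the p53 inhibitor Mdm4 (7.80) far below. The clock list had 1 of 7, the kinase Csnk1d at 9.66.

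**Figure D5:**
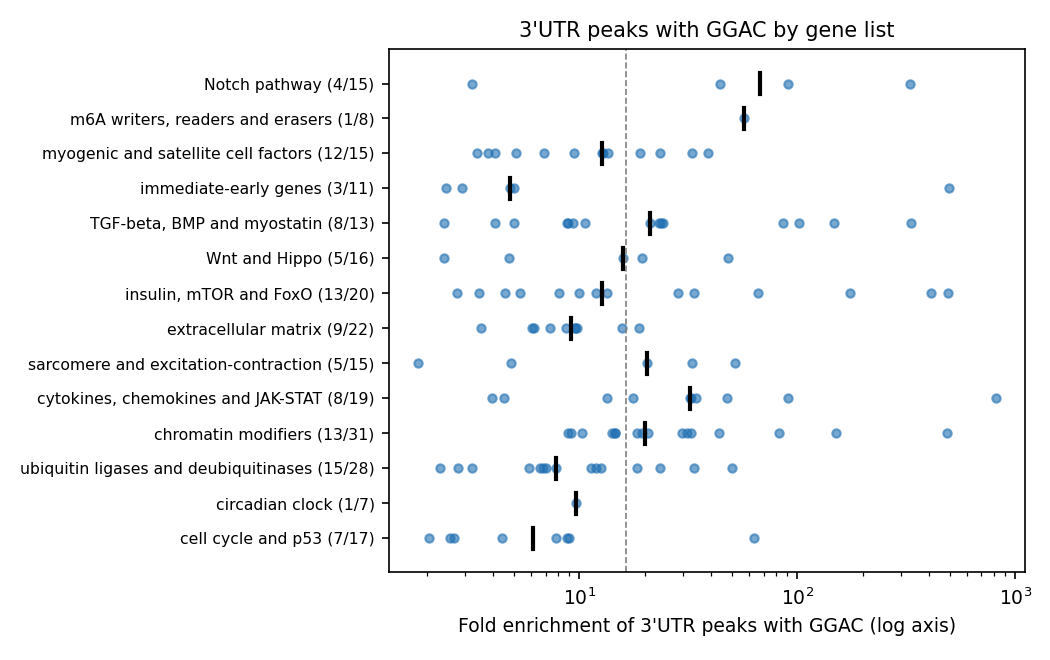
Fold enrichment (log axis) of each 3′UTR peak with GGAC in the genes of each list, with the median as a black bar and, in brackets, genes with such a peak over genes of the list in the muscle table. The dashed line is the median of all 1610 peaks, 16.3. Extracellular matrix genes stay at or below 18.8, while Cxcl12 reaches 815.

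The labelled cell type was set against its markers, although a peak table shows a methylated transcript and not its level. Of 7 muscle stem cell markers, 4 were in the muscle table and 3 had a member, namely Pax7, Myod1 and Sdc4 (2.01), a heparan sulfate proteoglycan of these cells. Of 7 myofibre markers 1 was in the table and none had a member. Of 5 macrophage markers 1 was in the table and had a member, the integrin Itgam at 1.90, which was not the strongest peak of that gene. Among 5 fibroblast markers 2 were in the table and 1 had a member, the collagen Col1a1 at 3.52. For 4 endothelial markers 1 was in the table and none had a member. Few markers of each type were thus in the table, so the shares cannot be ranked by cell type. Which cells of the tissue the members' transcripts came from was not tested.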

How the data were processed

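Reads were mapped and peaks called by the authors, whose processing notes name TopHat, MACS2 and mm10 without versions. The column names of the muscle table are those exomePeak writes. For each peak the authors deposited 1 fold enrichment (a ratio of IP over input), 1 p-value and the GGAC positions. They also deposited the log2 fold and the log10 p and FDR of their cKO and CTL comparison, none of it used here. The log10 columns for the peaks, damaged in part, were left out. No column of single-sample values (0) had to be left out. The C2C12 table gives positions and annotation.

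Listed site positions in minus-strand peaks of several blocks were put back through the blocks (61 members). Of 160 sites of all peak classes inside RefSeq promoter sequences, 158 then read GGAC. Of these sites 119 were in single-block peaks, which this step leaves unchanged, and all 119 read GGAC. Only the others, in peaks of several blocks, could bear on the step. Position reading and median intervals were tested on simulated data. Gene spans came from RefSeq (GRCm38.p6), and 2571 of 2598 3′UTR peaks matched a gene. Python 3.11.15, pandas 2.3.3, numpy 2.4.6, scipy 1.17.1 and matplotlib 3.10.9 were used. Named genes were the 10 highest and 3 lowest fold enrichments, the 5 peaks with most sites, the 3 densest with at least 3 sites, the 5 genes with most members, the 4 Notch genes of the study, and up to 4 peaks per gene list. Among the 5 genes with most members, Ago2 was tied at 3 with other genes that were not named for this. Others named were chosen after their values were seen. The members and lists were chosen with earlier results of these data known. Some list genes are not reported here by name.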

Additional observations from a re-analysis of the deposited data

How the results depend on the processing

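The count of 1610 members did not change when sites were recounted from the listed positions or each interval was counted once. It was 1023 with at least 2 sites and 998 for peaks no weaker than the median 3′UTR peak. The ratio of median fold enrichments with over without GGAC, 2.81, stayed between 2.53 and 2.83 with 1 peak per gene, single-block peaks or distinct intervals. Within length classes it was 0.956 below 200 bp, 0.866 from 200 to under 300 bp, 1.11 from 300 to under 500 bp and 1.96 from 500 to under 1000 bp, so its direction turned in the short classes. Site density was 4.88 per 1000 bp over the genomic span. The share of member genes with a C2C12 3′UTR peak, 23.5%, was 42.9% with C2C12 peaks of any annotation (33.9% without GGAC), 32.7% at or above the members' median fold enrichment, 28.8% with at least 2 sites and 13.8% for peaks of 200 to under 500 bp. The distance to the C2C12 peak, 308 bp, was 286 bp in genes with a single RefSeq start, 878 bp for peaks of 200 to under 500 bp (1417 bp without GGAC) and 175.5 bp in genes with 1 muscle 3′UTR peak (1119 bp without). From 200 to under 500 bp the lengths still differed. Below 300 bp lay 26 members and 40 other peaks, and above it 70 and 24. The medians were alike within each part, at 1656 and 1708 bp below 300 bp and at 789 and 777 bp above it. These restrictions to 200 to under 500 bp, single starts and single peaks were chosen after seeing the data. Of 104 list genes with a member, counted in each list that holds them, 78 remained when the strongest peak of the gene had to be the member, with chromatin modifiers going from 13 to 8 and Wnt and Hippo genes from 5 to 2. The cause of these shifts was not tested. The share of sites in the middle of the peak and the distance to the gene end changed by less than their intervals.

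The base after GGAC and the distance from the stop codon were not run over all members, since no genome sequence or coding ends were used here. No paired analysis was possible because each genotype has 1 library of each kind and the tables give 1 value per peak.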

Other observations

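In the RefSeq set, 5 microRNA hairpins lie inside member peaks on the same strand: Mir7017 in Wasf2 (fold enrichment 73.2, 4 sites), Mir7225 in Pde4dip (66.5, 5 sites), Mir705 in Rab11fip5 (12.4, 3 sites), Mir7082 in Raver1 (3.84, 1 site) and Mir5114 in Scd2 (3.74, 1 site). Of the 1610 members, 44 overlap a peak listed for another gene on the same strand and 49 one on the opposite strand, so the gene of these peaks is uncertain, and for 5 members in 4 genes the table lists a date in place of the symbol. Chromosome 11 holds the most members, 155, and the mitochondrial chromosome 0. These counts were not set beside those of all 3′UTR peaks per chromosome, so they show no trait of the members.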
